A study of Mus musculus with 6 samples.

Results

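Feedback genes of NF-kB and immediate-early genes were examined in unstimulated bone marrow-derived macrophages (BMDMs) with a myeloid deletion of *Scd2*. The 44 genes were taken by symbol from the deposited count table, 44 of its 40481 genes, by a rule that uses no measured value. The list of symbols was nevertheless drawn up with earlier results of these data known. They comprise 5 NF-kB subunits, 7 IkB proteins and other NF-kB inhibitors, 9 AP-1, ATF and MAF subunits, 3 EGR factors, 3 IER proteins, 6 DUSP phosphatases, 2 KLF factors, 5 genes of mRNA decay and translation control, the pseudokinase gene *Trib1* and 3 NR4A receptors. All 44 passed the filter on low counts that left 14778 genes for testing.

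In resting cells IkB proteins hold NF-kB dimers in the cytoplasm, and after a signal such as bacterial lipopolysaccharide they are degraded and the dimers enter the nucleus. Many genes that NF-kB then switches on encode its own inhibitors, so the response limits itself. Immediate-early genes such as *Fos*, *Egr1* and *Ier2* are transcribed within minutes of a stimulus without new protein synthesis, largely through factors that the MAP kinases and NF-kB activate. DUSP phosphatases switch the MAP kinases off again, and ZFP36 proteins bring about the decay of many of the resulting mRNAs.

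Bone marrow cells were cultured into macrophages in medium conditioned by CMG cells, a source of macrophage colony-stimulating factor, and 1 poly(A)-selected library was sequenced per sample, 3 of them wild-type and 3 Scd2-m/-m. Scd2-m/-m cells came from mice with floxed *Scd2* alleles and a Cre recombinase driven by the lysozyme M promoter, which acts in myelomonocytic cells, so that the deletion happens during the differentiation of these cells and need not reach every cell. The mice of the study were males and females aged 2 to 5 months, and the sources used here give neither the mouse behind each library nor the flox and Cre alleles of the wild-type mice. No lipopolysaccharide or other stimulus was added. Because nothing ties the libraries to separate mice or cultures, the p-values measure the spread between these samples, which may be technical.

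Each library held between 46285176 and 57629638 counts on genes. Levels are given as CPM, the counts of a gene per 1000000 counts of the scaled library size, always in the order of replicates 1, 2 and 3 and with the wild-type libraries named before the others. *Scd2* itself, the gene of a fatty acid desaturase, had 66.9, 77.8 and 62.7 CPM against 59.5, 37.96 and 39.8 CPM. Scd2-m/-m replicate 1 stood nearest to the wild-type libraries, the log2 fold change was −0.59 (FDR = 0.1002), and without that replicate it was −0.83 (FDR = 8.87e-05). Macrophage markers were abundant in every library, but their sum over 8 genes was 37461 to 38369 CPM in the wild-type group and 21448 to 21968 CPM in the other. *Lyz2*, the lysozyme M gene, accounted for most of that difference, with means of 22751 and 9029 CPM. Its promoter is the one that drives Cre in the Scd2-m/-m mice, and an effect of the Cre allele on its level was not tested. Of the 8 markers, 4 were lower, 1 was higher and 3 were not called. Cell division genes differed in the other direction, since 10 of 10 were higher in Scd2-m/-m BMDMs and their sum was 49.6 to 59.5 against 144 to 155 CPM. Of the markers of other cells, 5 of 7 tested neutrophil genes were higher (summed 10.9 to 11.7 against 25.6 to 33.3 CPM over the 9 listed, with *Ly6g* at 0 counts in every wild-type library), as were 2 of 6 dendritic cell genes and 2 of 4 tested B cell genes. None of 2 mast cell, 3 erythroid and 3 stromal genes tested was called, and none of 6 T and NK cell genes passed the filter. What part these other cells and the dividing cells had in the values of the 44 genes was not tested. In these bulk samples a smaller number of cells that express a gene and less of its RNA per cell cannot be told apart.

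Most of the 44 genes that differed between the genotypes were lower in Scd2-m/-m BMDMs. At an FDR below 0.05, which is how a gene is called higher or lower here (edgeR's quasi-likelihood test, Benjamini-Hochberg adjusted over all 14778 tested genes), 16 genes (36.4%) were lower, 4 (9.09%) were higher and 24 were not called. Among all tested genes 7.84% were called lower, 9.65% higher and 17.5% in either direction. The median log2 fold change, Scd2-m/-m over wild-type, was −0.20 over the 44 genes and 0.0039 over all tested genes, and the sign was negative in 32 genes and positive in 12. All 3 Scd2-m/-m libraries lay below all 3 wild-type libraries in 18 genes and above them in 5, where 17% and 17.9% of all tested genes did so. Level matters to such counts, since 31 of the 44 genes, and 43.3% of all tested genes, had a wild-type mean above 20 CPM. Above that level 15 of 31 genes were lower and 2 higher, while 13.2% of the 6401 tested genes above 20 CPM were called lower and 9.05% higher. The differences were modest in size: none of the 44 genes passed an absolute log2 fold change of 2, which 98 genes (0.663%) did, and the largest was −1.17 for *Trib1*. Without Scd2-m/-m replicate 1, the library with the highest *Scd2* of its genotype, 16 genes were lower and 4 higher.

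**Figure D1:**
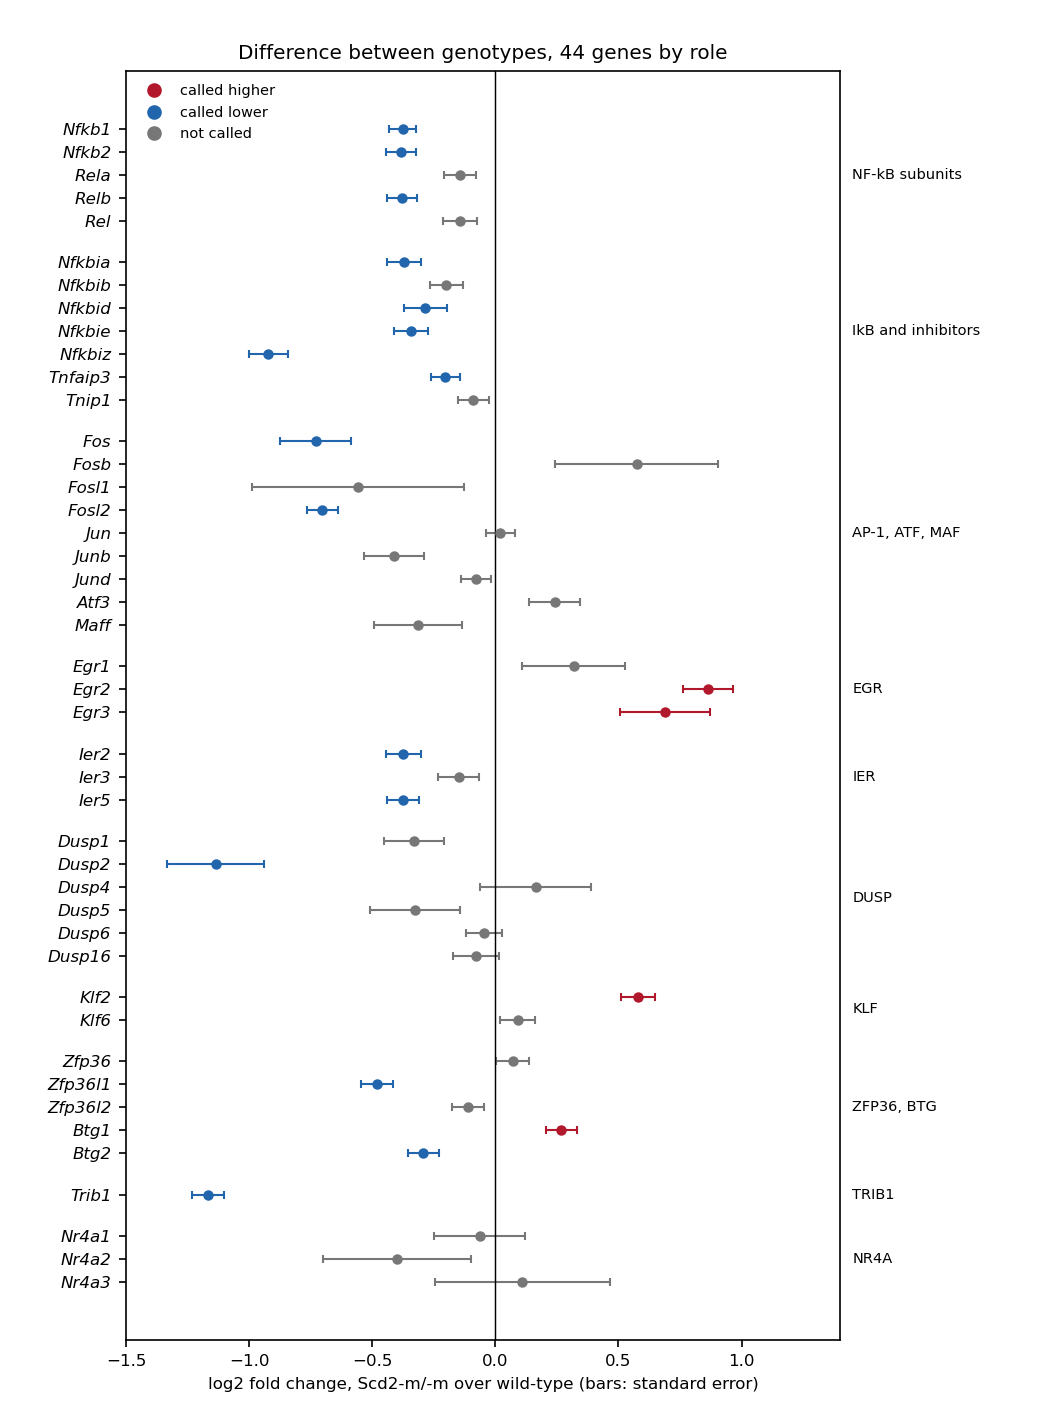
The log2 fold change of each of the 44 genes (x axis, Scd2-m/-m over wild-type, with bars for the standard error) is drawn by role on the y axis, in blue where called lower, red where called higher and gray where not called. The NF-kB subunits and the IkB proteins all lie left of 0, the EGR and KLF factors all lie right of 0, and the widest bars belong to low genes such as *Fosl1*.

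Of the 5 NF-kB subunits, 3 were lower in Scd2-m/-m BMDMs, each to about the same extent, and these were the precursor subunits p105 and p100 and their partner RelB. *Nfkb1*, which encodes p105 and p50, had 220, 231 and 215 CPM against 170, 170 and 173 CPM (log2 fold change −0.38, standard error 0.06, FDR = 0.000386). *Nfkb2*, the gene of p100 and p52 in the non-canonical pathway, had 223, 217 and 223 CPM against 183, 167 and 159 CPM (−0.38, standard error 0.06, FDR = 0.000805). *Relb*, whose product pairs mainly with p52 and p50, had 95.2, 93.2 and 99.6 CPM against 76.4, 74.4 and 70.6 CPM (−0.38, standard error 0.06, FDR = 0.000586). In none of these 3 did any Scd2-m/-m library reach a wild-type library. Other genes overlap 18.1% of the exonic bases of *Nfkb2*, and the sources used here do not say whether the counting used strand. The 2 other subunits, which carry the transactivation domains of the canonical pathway, were not called and their libraries overlapped. *Rela* had 200, 183 and 176 CPM against 177, 162 and 166 CPM (−0.14, FDR = 0.146), and *Rel* had 37.6, 41.9 and 41.4 against 37.2, 34.4 and 37.9 CPM (−0.14, FDR = 0.176).

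Of the 7 inhibitors, 5 were lower and none was higher. *Nfkbiz* (chr16:55811375-55838899, minus strand, GRCm38), which encodes the nuclear IkB protein IkB-zeta that helps NF-kB switch on secondary response genes, stood out. It had 110, 125 and 102 CPM against 62.5, 54.0 and 61.1 CPM, 52.8% of the wild-type mean (−0.92, standard error 0.08, FDR = 4.25e-06). The lowest wild-type library was far above the highest Scd2-m/-m library. The classical cytoplasmic inhibitors fell less: *Nfkbia* (IkB-alpha) had 236, 211 and 195 CPM against 166, 170 and 160 CPM (−0.37, standard error 0.07, FDR = 0.00234). *Nfkbie* (IkB-epsilon) had 67.9, 59.1 and 58.9 CPM against 50.3, 48.4 and 47.9 CPM (−0.34, standard error 0.07, FDR = 0.0034). *Nfkbib* (IkB-beta) had 52.3, 47.8 and 47.1 CPM against 45.5, 42.4 and 40.4 CPM and was not called (−0.20, FDR = 0.0623), although its genotypes did not overlap.

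Of the other inhibitors 2 were lower, with calls near the threshold that several fits with 1 library left out did not keep. *Nfkbid*, a second nuclear IkB gene, had 25.3, 26.0 and 21.0 CPM against 20.8, 18.5 and 19.9 CPM, so wild-type replicate 3 lay next to Scd2-m/-m replicate 1 (−0.28, standard error 0.09, FDR = 0.0386). *Tnfaip3*, the gene of the ubiquitin-editing enzyme A20, had 51.7, 52.2 and 50.3 CPM against 44.9, 43.0 and 46.0 CPM, a small but even drop (−0.20, standard error 0.06, FDR = 0.0316). *Tnip1*, whose product ABIN1 works with A20, had 133, 124 and 115 CPM against 120, 115 and 114 CPM and was not called (−0.09, FDR = 0.386). The call of *Nfkbid* was lost without wild-type replicate 1 (FDR = 0.104) or 2 (FDR = 0.195), without Scd2-m/-m replicate 2 (FDR = 0.185) or 3 (FDR = 0.0772), and with limma-voom (FDR = 0.0569). That of *Tnfaip3* was lost without wild-type replicate 1 (FDR = 0.0716), 2 (FDR = 0.134) or 3 (FDR = 0.0512) or Scd2-m/-m replicate 2 (FDR = 0.17). With 1 library left out the log2 fold change stayed between −0.38 and −0.23 for *Nfkbid* and between −0.22 and −0.18 for *Tnfaip3*.

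The starts of 4 of these lower genes are shown because each holds a match to the kB site, the 10-base consensus that NF-kB dimers bind, searched on both strands. The windows are RefSeq promoters of build GRCm38.p6 that run from 250 bases before to 50 bases after the transcription start, printed on the gene's strand with each motif match in capitals. *Nfkb2* (chr19:46304487-46304786, plus strand) has a pair of overlapping matches 39 to 29 bases before its start and another 11 to 2 bases before it. *Nfkbia* (chr12:55492598-55492897, minus strand) has a match 29 to 20 bases before the start and a TATAAA on the opposite strand just after it. *Nfkbie* (chr17:45555450-45555749, plus strand) has a match 106 to 97 bases before the start, and the capitals further upstream are the AP-1 element TGACTCA on the opposite strand. *Tnfaip3* (chr10:19015361-19015660, minus strand) has matches 125 to 116 and 12 to 3 bases before the start, with TGACTCA and TATAAA further upstream.
Nfkb2: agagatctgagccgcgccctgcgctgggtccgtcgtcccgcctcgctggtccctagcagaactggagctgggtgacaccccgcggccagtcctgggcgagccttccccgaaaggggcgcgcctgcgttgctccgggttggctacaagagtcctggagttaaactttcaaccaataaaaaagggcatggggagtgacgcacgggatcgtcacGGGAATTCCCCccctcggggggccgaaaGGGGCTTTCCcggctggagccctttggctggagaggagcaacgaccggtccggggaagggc
Nfkbia: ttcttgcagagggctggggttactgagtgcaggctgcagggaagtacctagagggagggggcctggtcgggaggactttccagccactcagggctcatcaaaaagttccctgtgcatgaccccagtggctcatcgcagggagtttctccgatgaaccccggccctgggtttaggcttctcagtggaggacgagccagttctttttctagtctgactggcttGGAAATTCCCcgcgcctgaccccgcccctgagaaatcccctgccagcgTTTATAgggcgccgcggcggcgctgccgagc
Nfkbie: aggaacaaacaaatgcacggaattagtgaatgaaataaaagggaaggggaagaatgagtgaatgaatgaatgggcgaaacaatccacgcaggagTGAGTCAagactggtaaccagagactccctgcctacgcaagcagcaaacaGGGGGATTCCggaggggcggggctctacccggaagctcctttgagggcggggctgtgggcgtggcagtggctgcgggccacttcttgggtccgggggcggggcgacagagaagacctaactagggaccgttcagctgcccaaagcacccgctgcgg
Tnfaip3: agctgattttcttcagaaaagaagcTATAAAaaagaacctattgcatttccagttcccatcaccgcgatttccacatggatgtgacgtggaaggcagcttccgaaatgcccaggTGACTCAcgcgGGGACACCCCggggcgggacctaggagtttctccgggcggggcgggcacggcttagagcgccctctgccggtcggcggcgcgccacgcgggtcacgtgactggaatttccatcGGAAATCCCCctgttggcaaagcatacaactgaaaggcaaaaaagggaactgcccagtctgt
A match is only a stretch of letters, and binding to it was not measured in these samples.

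AP-1 dimers are built from a FOS and a JUN protein or from relatives of the ATF and MAF families, and here 2 of 9 subunit genes were lower, both of the FOS family. *Fosl2*, which encodes FRA2, had 51.8, 49.2 and 48.6 CPM against 29.8, 31.2 and 31.0 CPM (−0.70, standard error 0.06, FDR = 4.29e-06), and within each genotype its libraries were close together. *Fos* (chr12:85473890-85477273, plus strand, GRCm38) had 231, 181 and 151 CPM against 118, 113 and 109 CPM, 60.3% of the wild-type mean (−0.73, standard error 0.14, FDR = 0.0128). Its 3 Scd2-m/-m libraries were nearly equal and its wild-type libraries were not, with a coefficient of variation of 4.24% and 21.5%. Without Scd2-m/-m replicate 1 or 3 the adjusted p of *Fos* was 0.0602 or 0.103.

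The promoter of *Fos* is shown as the most studied of the immediate-early promoters (RefSeq, GRCm38.p6, chr12:85473640-85473939, plus strand). Capitals mark a TATAAA 33 to 28 bases before the start and a kB site match, read on the opposite strand, 214 to 205 bases before it.
Fos: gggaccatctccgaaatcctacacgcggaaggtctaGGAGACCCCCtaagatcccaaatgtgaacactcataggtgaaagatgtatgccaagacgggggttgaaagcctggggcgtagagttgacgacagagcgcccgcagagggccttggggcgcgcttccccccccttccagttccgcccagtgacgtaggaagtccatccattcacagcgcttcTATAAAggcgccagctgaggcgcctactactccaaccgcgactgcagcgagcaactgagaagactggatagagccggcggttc
The CArG box search found no match within this window, which says only that the searched letters are absent from it.

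The JUN family did not move as a whole. *Jun* had 83.2, 75.7 and 76.7 CPM against 78.1, 79.5 and 81.4 CPM (0.02, FDR = 0.855), and *Jund* had 108, 105 and 113 CPM against 108, 104 and 95.9 CPM (−0.08, FDR = 0.435). *Junb* had 245, 196 and 176 CPM against 165, 160 and 137 CPM, without overlap, and narrowly missed the threshold (−0.41, standard error 0.12, FDR = 0.0505). *Junb* was called lower in 8 of 16 alternative settings, and without wild-type replicate 1 its log2 fold change was −0.27 (FDR = 0.0353). *Atf3*, a stress-induced repressor of inflammatory genes, had 99.2, 81.7 and 70.2 CPM against 97.3, 99.8 and 99.7 CPM (0.24, FDR = 0.141). Its wild-type replicate 1 matched the Scd2-m/-m libraries, and without that replicate the log2 fold change was 0.38 (FDR = 0.00237). *Maff* ranged over 3.62 to 5.74 CPM against 3.05 to 3.90 CPM (−0.31, FDR = 0.262). *Fosb* and *Fosl1* were barely expressed, with 20 to 52 and 9 to 33 counts per library. Their log2 fold changes of 0.57 (FDR = 0.264) and −0.56 (FDR = 0.418) had standard errors of 0.33 and 0.43.

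Only the EGR and KLF families, zinc finger transcription factors, had all their members on the positive side, with 3 of 5 genes called higher. *Egr2*, a factor of macrophage and lymphocyte differentiation, had 6.35, 7.33 and 6.89 CPM against 13.5, 11.6 and 12.3 CPM, 182% of the wild-type mean (0.86, standard error 0.10, FDR = 5.5e-05). *Egr3* had 1.95, 1.95 and 1.99 CPM against 2.69, 2.88 and 3.92 CPM (0.69, standard error 0.18, FDR = 0.0177), so Scd2-m/-m replicate 3 was well above the other two. The call of *Egr3* was lost without that library (FDR = 0.0913) and without wild-type replicate 2 (FDR = 0.0653). *Egr1*, the classical immediate-early member, had 8.30, 9.93 and 13.3 CPM against 11.5, 11.2 and 16.6 CPM and was not called (0.32, FDR = 0.365). The third replicate was its highest library in both genotypes.

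*Klf2*, a factor that restrains the activation of monocytes and endothelial cells, had 59.3, 50.7 and 58.4 CPM against 87.7, 82.1 and 81.7 CPM, 149% of the wild-type mean and without overlap (0.58, standard error 0.07, FDR = 7.18e-05). Its relative *Klf6* had 244, 235 and 233 CPM against 228, 252 and 279 CPM (0.09, FDR = 0.432), and the Scd2-m/-m libraries surrounded the wild-type ones.

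The starts of *Egr2* and *Klf2* are set against those above because they rose (RefSeq, GRCm38.p6, plus strand). Capitals mark in *Egr2* (chr10:67537619-67537918) the CArG box to which serum response factor binds, 72 to 63 bases before the start. In *Klf2* (chr8:72318812-72319111) they mark GCGGGGGCG, a form of the motif bound by EGR proteins, 199 to 191 bases before the start.
Egr2: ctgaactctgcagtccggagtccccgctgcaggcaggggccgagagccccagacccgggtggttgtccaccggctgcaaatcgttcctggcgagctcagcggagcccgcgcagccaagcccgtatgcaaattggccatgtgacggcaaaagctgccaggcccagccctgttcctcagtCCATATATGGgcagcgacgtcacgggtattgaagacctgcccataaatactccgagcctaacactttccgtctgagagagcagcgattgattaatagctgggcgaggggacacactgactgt
Klf2: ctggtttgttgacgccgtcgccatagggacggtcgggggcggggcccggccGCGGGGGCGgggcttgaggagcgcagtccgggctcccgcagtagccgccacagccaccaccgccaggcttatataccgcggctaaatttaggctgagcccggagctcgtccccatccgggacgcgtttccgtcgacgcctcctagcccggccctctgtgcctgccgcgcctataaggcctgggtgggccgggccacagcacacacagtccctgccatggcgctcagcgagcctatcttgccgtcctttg
Neither window held a kB site match.

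Of the 3 IER genes, 2 were lower. *Ier2* had 37.0, 33.7 and 36.3 CPM against 29.5, 25.9 and 27.2 CPM (−0.37, standard error 0.07, FDR = 0.00236), and *Ier5* had 91.2, 95.45 and 88.5 CPM against 70.4, 76.04 and 66.0 CPM (−0.37, standard error 0.07, FDR = 0.00137). Both encode nuclear proteins induced by growth factors, and in both the genotypes were well separated. *Ier3*, an NF-kB target linked to cell survival, had 47.3, 50.9 and 52.2 CPM against 39.1, 46.2 and 50.2 CPM, with overlap (−0.15, FDR = 0.254).

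Of the 6 DUSP genes, which encode phosphatases of the MAP kinases, 1 was lower. *Dusp2*, a nuclear phosphatase of immune cells, had 3.10, 3.69 and 2.48 CPM against 1.54, 1.21 and 1.445 CPM, 45.3% of the wild-type mean (−1.14, standard error 0.20, FDR = 0.00122). Although low, it rested on 126 to 170 counts in the wild-type group and 61 to 86 counts in the other. *Dusp1*, the main brake on p38 and JNK in macrophages, had 68.9, 56.1 and 48.4 CPM against 51.0, 43.9 and 43.2 CPM (−0.33, standard error 0.12, FDR = 0.101), and wild-type replicate 3 lay inside the Scd2-m/-m range. Without that replicate it was called lower (−0.44, FDR = 0.00558), as it was with DESeq2 (FDR = 0.0195). *Dusp4* had 23.6, 16.8 and 12.6 CPM against 20.02, 21.4 and 18.1 CPM (0.16, FDR = 0.689), and leaving out wild-type replicate 1 made it higher (0.43, FDR = 0.0216). *Dusp6*, the cytoplasmic phosphatase of ERK, ranged over 26.3 to 29.4 CPM against 25.4 to 28.1 CPM (−0.05, FDR = 0.725). *Dusp5* (−0.33, FDR = 0.257) and *Dusp16* (−0.08, FDR = 0.624) also overlapped between the genotypes.

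The 3 NR4A genes encode orphan nuclear receptors that are induced rapidly in activated macrophages, and none was called. *Nr4a1* had 15.8, 16.7 and 20.01 CPM against 14.1, 14.2 and 21.9 CPM (−0.06, FDR = 0.861), and as with *Egr1* the third replicate was the highest in both genotypes. *Nr4a2* had 2.36, 1.43 and 0.92 CPM against 1.02, 1.13 and 1.41 CPM (−0.40, standard error 0.30, FDR = 0.408). *Nr4a3* rested on 17 to 27 counts per library (0.11, standard error 0.35, FDR = 0.873), so a difference of that size could not be detected at this depth.

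*Trib1* had the largest change and the smallest p of the 44 genes. TRIB1 is a pseudokinase that brings the ubiquitin ligase COP1 to C/EBP-alpha and is needed for normal tissue macrophages. *Trib1* (ENSMUSG00000032501, chr15:59648350-59657099, plus strand, GRCm38) had 47.4, 46.5 and 43.5 CPM against 21.0, 20.2 and 19.99 CPM. Its mean was down to 44.5% (log2 fold change −1.17, standard error 0.07, FDR = 8.74e-08). The libraries of each genotype lay within a narrow range and the genotypes were far apart.

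**Figure D2:**
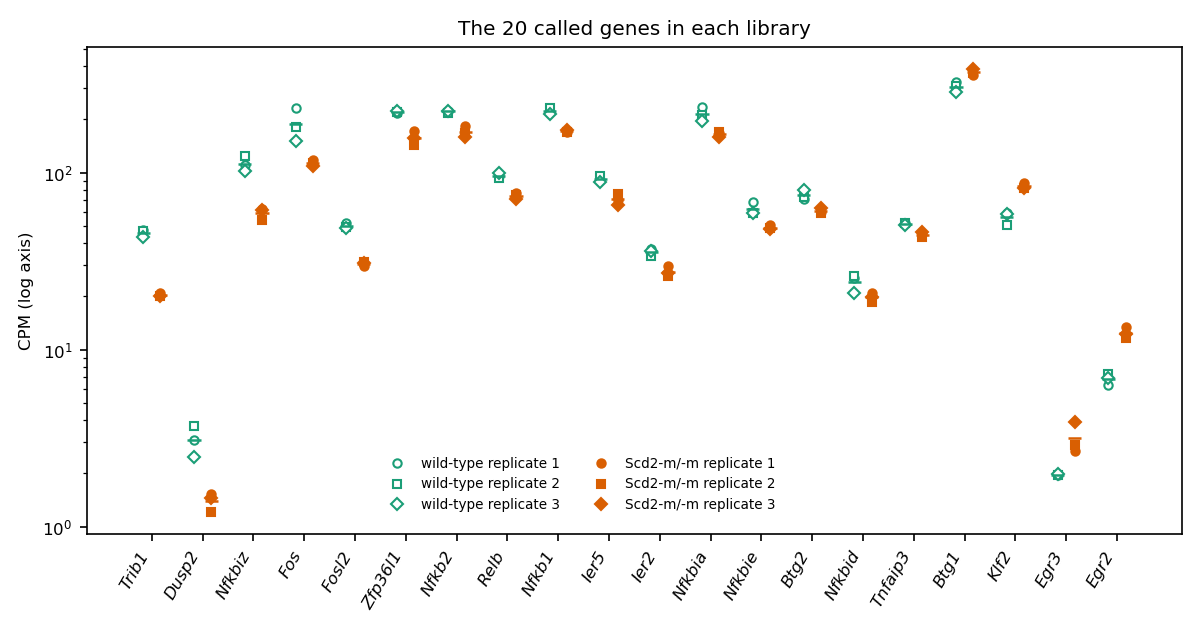
The CPM of the 20 called genes in each library (y axis, log scale) is plotted with open green symbols for wild-type and filled orange symbols for Scd2-m/-m libraries, and short bars for the means. *Trib1*, at 43.5 to 47.4 CPM against 19.99 to 21.0 CPM, shows the tightest separation of a large difference, whereas the wild-type libraries of *Fos* spread from 151 to 231 CPM.

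The genes that act on mRNA decay and translation moved in different directions. *Zfp36l1*, an RNA-binding protein gene of the ZFP36 family, had 217, 220 and 223 CPM against 172, 144 and 157 CPM (−0.48, standard error 0.07, FDR = 0.00023). Its relatives did not pass the test: *Zfp36*, the gene of tristetraprolin, had 315, 279 and 283 CPM against 318, 286 and 316 CPM (0.07, FDR = 0.529). *Zfp36l2* had 962, 1008 and 1080 CPM against 964, 934 and 928 CPM (−0.11, FDR = 0.278). The antiproliferative genes *Btg1* and *Btg2*, whose products bind the CCR4-NOT deadenylase complex, were called in opposite directions. *Btg1* rose from 323, 307 and 287 CPM to 356, 365 and 384 CPM (0.27, standard error 0.06, FDR = 0.00992). *Btg2* fell from 71.2, 72.5 and 79.7 CPM to 59.9, 59.3 and 63.2 CPM (−0.29, standard error 0.06, FDR = 0.00596). Neither overlapped between the genotypes, but without Scd2-m/-m replicate 2 both narrowly missed the threshold (FDR = 0.0527 for *Btg1* and 0.0516 for *Btg2*), and without wild-type replicate 2 *Btg1* did so too (FDR = 0.0574). Of the exons of *Zfp36l1*, 55.9% overlap a long noncoding RNA gene on the other strand, *Gm26669*, so without strand in the counting their reads could not be told apart.

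ZFP36 proteins bind AU-rich elements in mRNAs, and the core element TATTTAT was counted on the sense strand of the longest annotated 3' untranslated region of each gene (GENCODE, GRCm38). At least 1 copy was found in 22 of the 44 genes (50%), against 29% of 12126 tested genes with such a region. The density was 0.642 against 0.283 copies per kb at a similar median length of 1148 and 1128 bases. As the 44 were chosen as NF-kB feedback and immediate-early genes, these gaps may come from the choice and are no independent result. By call, 7 of the 16 lower genes had it (0.625 copies per kb), 1 of the 4 higher genes (0.114 copies per kb) and 14 of the 24 genes that were not called (0.788 copies per kb). Sites of 30 bases are shown for lower genes (*Nfkbia* at chr12:55489600-55489629, *Fos* at chr12:85477110-85477139, *Zfp36l1* at chr12:80108414-80108443) and for genes not called that carry a pair of elements close together (*Zfp36* at chr7:28376958-28376987, *Ier3* at chr17:35822488-35822517), with the element in capitals.
Nfkbia site: gtttTATTTATtgtgcttttgattgaacca
Fos site: aattTATTTATtaagatggattctcagata
Zfp36l1 site: aacgTATTTATtgccaaactatgctttttt
Zfp36 site: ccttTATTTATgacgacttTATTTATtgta
Ier3 site: ttaaTATTTATgTATTTATgtatatcctcc
*Fos* has 2 copies and was at 60.3% of its wild-type mean, and *Ier3* has 4 copies and was at 90.2%. What part the element had in the levels of these or the other genes was not tested.

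Motifs in the promoter windows were counted for the 34 of the 44 genes that had a RefSeq window, some with several starts (1.32 windows per gene, against 1.22 over all 27025 genes with one). A kB site was present in 13 of 34 genes (38.2%), against 5.14% of all genes. Because the 44 genes were chosen as NF-kB feedback and immediate-early genes, that gap may come from the choice and is no independent result. The same holds for the gaps of the other motifs below. Moreover, the 27025 genes include genes that did not pass the filter on low counts, whereas all 44 did. By call, 7 of the 11 lower genes with a window had a kB site, 0 of the 3 higher genes, and 6 of the 20 genes that were not called. The lower genes *Trib1*, *Nfkbiz*, *Nfkb1*, *Relb* and *Ier2* and the higher gene *Egr3* had no window here, so their promoters were not searched. The 7 lower genes were *Nfkb2*, *Nfkbia*, *Nfkbid*, *Nfkbie*, *Tnfaip3*, *Fos* and *Fosl2*, and the 6 that were not called included *Rel*, *Tnip1* and *Ier3*. The form GCGGGGGCG of the EGR motif was present in 20.6% against 3.31%, and GCGTGGGCG in 2.94% against 0.707%. The cyclic AMP response element TGACGTCA was found in 4 genes (11.8% against 2.03%), namely *Btg2*, *Nfkbid*, *Dusp1* and *Maff*, and the CArG box in 3 (8.82% against 1.81%), namely *Egr2*, *Dusp5* and *Zfp36*. The AP-1 element TGACTCA (5.88% against 5.95%) and the string TATAAA (20.6% against 15.7%) were about as frequent as in all genes. TATAAA was counted anywhere in the window, so a match need not be a TATA box. It lay 33 to 28 bases before the start in *Fos* but 225 to 220 bases before it in *Tnfaip3*. The shorter string TGACG, which TGACGTCA contains, was found in 61.8% against 23%, namely in 6 of the 11 lower genes, 3 of the 3 higher genes and 12 of the 20 genes that were not called. All were searched on both strands, and these shares describe letters in short windows only.

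**Figure D3:**
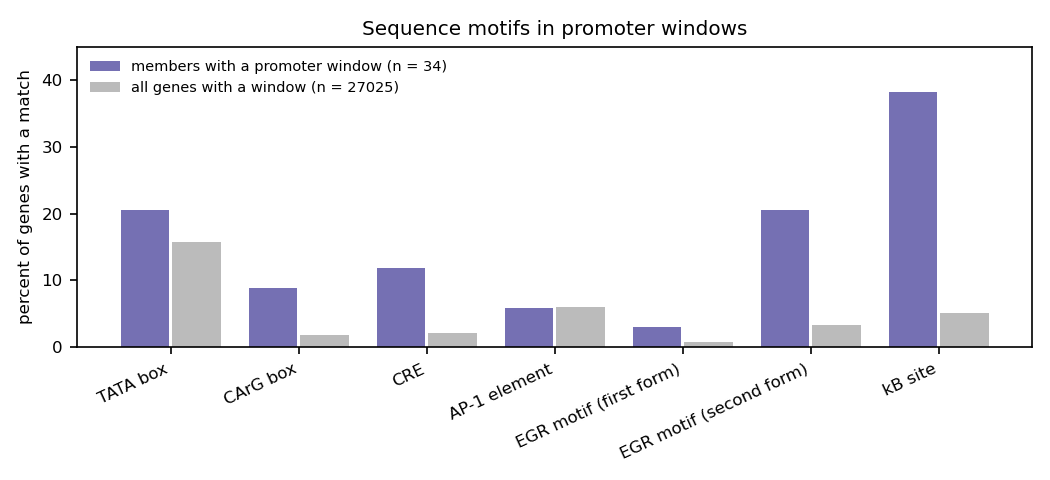
Bars give the percent of genes with at least 1 match in a promoter window (y axis) for 7 motifs (x axis), in purple for the 34 of the 44 genes with a window and gray for all 27025 genes with one. Of these 7 motifs, which leave out the shorter string TGACG, the kB site shows the widest gap, 38.2% against 5.14%, in genes chosen partly for their place in NF-kB feedback. The AP-1 element is at 5.88% against 5.95%. The bars labelled TATA box count TATAAA anywhere in the window.

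The genes differed widely in how evenly the replicates expressed them. The median biological coefficient of variation that edgeR estimated was 0.0681 over the 44 genes, 0.0843 over all tested genes and 0.0649 over tested genes above 20 CPM. Among genes above 1 CPM, 10 varied most between wild-type libraries, with coefficients of variation from 17.3% to 46.2%. In 7 of them (*Fos*, *Junb*, *Dusp1*, *Atf3*, *Dusp4*, *Maff* and *Nr4a2*) wild-type replicate 1 was the highest library, in *Dusp2* and *Dusp5* it was replicate 2 and in *Egr1* replicate 3. That library was the highest of its genotype in 21 of the 44 genes (47.7%), against 36.8% of all tested genes. Among the Scd2-m/-m libraries replicate 1 was the highest in 21 genes (47.7%, against 37.7%). In *Fos* all 3 Scd2-m/-m libraries lay below the lowest wild-type library despite this spread, in *Dusp1* and *Atf3* the groups met, and in *Dusp4* the wild-type libraries spanned all those of the other genotype. *Egr3*, *Zfp36l1*, *Nfkb2* and *Tnfaip3* varied least between wild-type libraries, with coefficients of 1.01% to 1.89%. *Egr3* rested there on 90 to 101 counts per library, too few to show so even a level. Its coefficient from edgeR was 0.142, and that between Scd2-m/-m libraries was 21.0%. The numbers and labels give no batch that separates the libraries, so no value within batches could be computed.

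**Figure D4:**
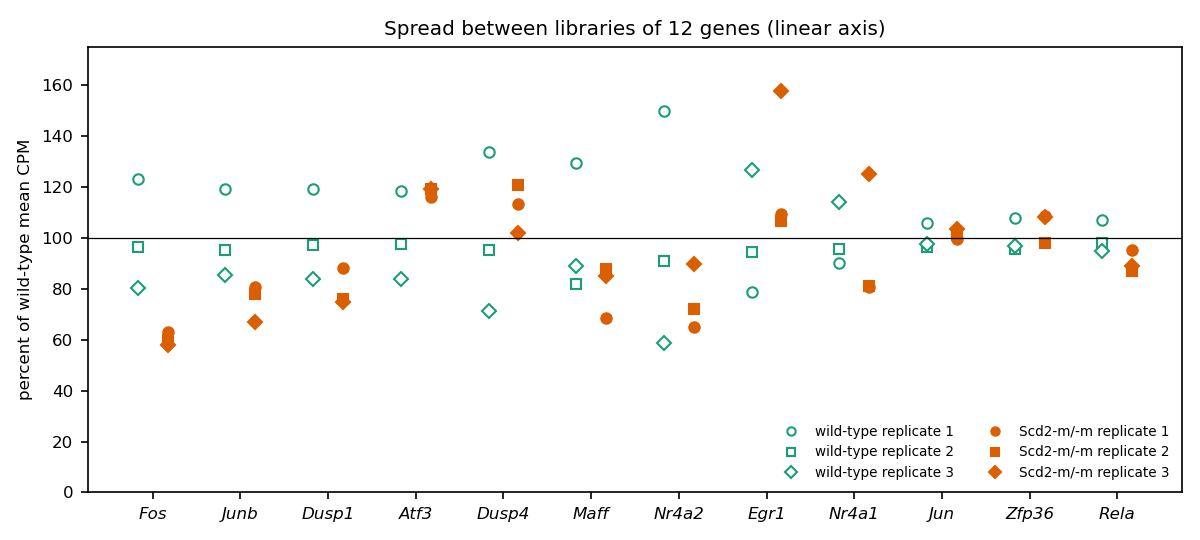
For 12 genes (x axis), each library is plotted as a percent of the wild-type mean CPM of that gene (y axis, linear), with open green symbols for wild-type and filled orange symbols for Scd2-m/-m libraries. Wild-type replicate 1 tops its group from *Fos* to *Nr4a2*, and for *Atf3* it lies with the Scd2-m/-m libraries above 100 percent.

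Levels of different genes were compared as CPM per kb of exonic length (GENCODE, GRCm38), given as the wild-type and then the Scd2-m/-m mean. That length merges the exons of all annotated transcripts of a gene, 12061 bases in *Nfkb1* and 3072 in *Rela*. The transcripts expressed here may be shorter, so the order of genes below depends on the annotation and need not follow abundance. *Zfp36l2* had the highest value of the 44 genes, 288 and 267 CPM per kb, followed by *Nfkbia* at 133 and 103. Next came *Junb* at 89.2 and 67.0, *Zfp36* at 84.2 and 88.4, *Fos* at 80.0 and 48.2 and *Zfp36l1* at 73.5 and 52.7. In wild-type BMDMs *Junb*, *Zfp36* and *Fos* stood close together per length, whereas in Scd2-m/-m BMDMs *Zfp36* was above both. By this measure *Rela* led the subunits at 60.7 and 54.9 CPM per kb, with *Nfkb2* at 48.3 and 37.0. Below them were *Relb* at 24.7 and 19.0, *Nfkb1* at 18.4 and 14.2 and *Rel* at 5.40 and 4.89, the same order in both genotypes. *Nfkbiz* stood at 22.4 and 11.8 CPM per kb, and so went from above *Nfkbie* (20.4 and 16.1) to below it. At the low end were *Nr4a3* at 0.0712 and 0.0767, *Fosb* at 0.0833 and 0.124 and *Fosl1* at 0.236 and 0.160 CPM per kb. Levels of genes that share exonic bases with a neighbour are less certain, and this share was 57.2% in *Fosl1*, 52.6% in *Jund*, 22.1% in *Dusp5*, 16.4% in *Nfkbib*, 7.52% in *Junb* and 7.28% in *Jun*.

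Genes around the 44 in the same pathways were read from lists that hold none of the 44. Beside the counts below stand the shares of all tested genes, 7.84% lower and 9.65% higher, and of those above 20 CPM, 13.2% and 9.05%. Of 35 upstream NF-kB signalling genes (adaptors, kinases and ligases), 7 were lower and 1 was higher, with a median log2 fold change of −0.08. The lower ones were led by *Irak3*, an inhibitory kinase of Toll-like receptor signalling, which fell from 141 ± 8.92 to 77.8 ± 5.32 CPM (mean ± SD, n = 3, −0.85, FDR = 2.07e-06). The adaptor genes *Traf3* (−0.46, FDR = 0.00028) and *Traf2* (−0.51, FDR = 0.00048) and the kinase gene *Irak2* (−0.30, FDR = 0.00367) also fell. Of 41 tested MAP kinase, SRF and CREB genes 6 were lower and 4 higher (14.6% and 9.76%, median −0.11), near the shares of genes above 20 CPM. Examples were the kinase genes *Rps6ka5* (−0.54, FDR = 0.000377) and *Map3k5* (−0.41, FDR = 0.000985) and the scaffold gene *Ksr1* (−0.59, FDR = 0.00105) among the lower, and *Mapk6* (0.33, FDR = 0.00282) among the higher. Of 13 tested feedback genes of the ERK pathway outside the DUSP group above, 3 were lower and 1 higher (median −0.10). These were *Etv5* (−0.68, FDR = 0.000801), *Errfi1* (−0.37, FDR = 0.016) and *Spry2* (−0.69, FDR = 0.0286) against *Dusp3* (0.25, FDR = 0.0164). Only the call of *Etv5* held with each library left out. That of *Spry2* held only without wild-type replicate 3 and was lost without wild-type replicate 1 (−0.42, FDR = 0.0796) or 2 (FDR = 0.071) or Scd2-m/-m replicate 1 (FDR = 0.11), 2 (FDR = 0.0969) or 3 (FDR = 0.0814). *Dusp3* lost it without replicate 2 or 3 of either genotype (FDR from 0.0568 to 0.0979), and *Errfi1* without wild-type replicate 1 or 2 or Scd2-m/-m replicate 2 (FDR from 0.0618 to 0.0644).

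Of 41 other immediate-early genes tested, 13 were lower and 7 higher, and the median of −0.04 lay near 0 because the directions were mixed. *Cebpd*, a C/EBP factor of the acute phase, fell from 116 ± 2.37 to 75.1 ± 2.84 CPM (n = 3, −0.62, FDR = 6.68e-06) and *Ets2* from 55.8 ± 2.66 to 39.3 ± 1.83 CPM (−0.51, FDR = 0.000114). The kinase gene *Plk2* rose from 28.9 ± 1.49 to 49.2 ± 4.25 CPM (0.77, FDR = 1.07e-05) and *Bhlhe40* from 4.89 ± 0.65 to 8.74 ± 0.93 CPM (0.84, FDR = 0.000479). Of 35 tested effector genes that NF-kB induces, 10 were lower and 4 higher (median −0.10), and here single genes changed far more than any of the 44. *Il1b*, the cytokine interleukin 1 beta, fell from 38.6 ± 2.37 to 6.93 ± 0.89 CPM (−2.48, FDR = 2.79e-09) and the metalloprotease gene *Mmp9* from 51.4 ± 9.17 to 16.7 ± 0.86 CPM (−1.62, FDR = 7.07e-06). The adhesion molecule gene *Vcam1* rose from 4.32 ± 1.22 to 18.5 ± 3.2 CPM (2.10, FDR = 0.000243) and *Lcn2* from 2.30 ± 0.12 to 5.36 ± 0.65 CPM (1.22, FDR = 6.53e-05). Heat shock genes, which respond to stress during cell handling, were 2 lower and 0 higher of 10 tested, by *Hspa8* (−0.28, FDR = 0.00812) and *Dnajb1* (−0.29, FDR = 0.00928). The sign was positive in 6 of the 10 and the median was 0.07. Their sum, most of it *Hspa8*, was 2044 to 2180 CPM against 1760 to 1840 CPM, and its part in the values of the immediate-early genes was not tested. The shares of the lists were not tested against each other.

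Some of these counts fell when 1 library was left out, together with the calls over all genes. Without wild-type replicate 2 the calls over all genes went from 2585 to 1490, with 1 ERK feedback gene, 6 MAP kinase, SRF and CREB genes, 9 effector genes, 1 heat shock gene (FDR = 0.0648 for *Dnajb1*) and 2 higher genes of the 44. Without Scd2-m/-m replicate 2 they went to 1440, with 1 ERK feedback gene, 6 MAP kinase, SRF and CREB genes, 5 upstream genes, 12 other immediate-early genes and no heat shock gene (FDR = 0.0738 for *Hspa8* and 0.0575 for *Dnajb1*), and without Scd2-m/-m replicate 3 there were 2 ERK feedback genes.

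**Figure D5:**
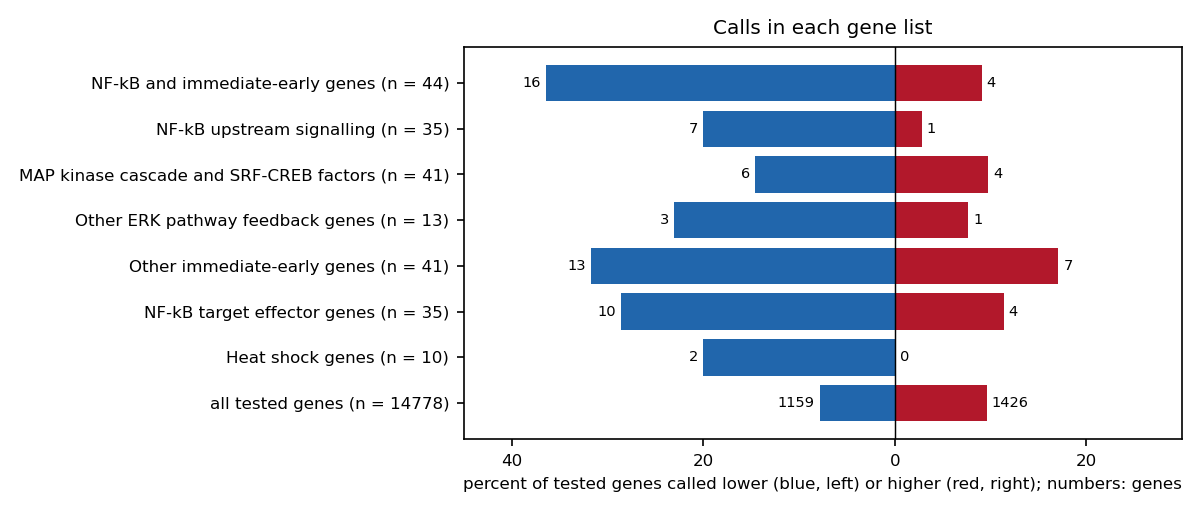
Bars give the percent of the tested genes of each list (y axis, n in brackets) that were called lower (blue, to the left) or higher (red, to the right) in Scd2-m/-m BMDMs, with the number of genes at each bar's end. The 44 genes reach 36.4 percent to the left, the other lists between 14.6 and 31.7 percent, and all tested genes 7.84 percent. Among tested genes above 20 CPM, which are not drawn, 13.2 percent were called lower, and the lists were not split by level.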

How the data were processed

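Poly(A)-selected RNA of 3 wild-type and 3 Scd2-m/-m BMDM samples was sequenced on an Illumina NovaSeq. Reads had been aligned by STAR to the primary assembly of Ensembl release 76 (GRCm38), and the authors deposited raw counts of reads on genes. The sources used here name neither the counting tool nor its strand setting, and 60.9% to 64.9% of counts from 1 to 20 were even. A second deposited table is the authors' comparison of the genotypes, holding p-values, confidence limits, log2 fold changes and log2 values per library, for which the submitters' processing notes name edgeR and limma. It was not used.

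Of 40757 entries, 276 repeated a gene and were removed. Samples were grouped by their GEO labels. Genotypes were compared over all 6 libraries with edgeR 4.0.16 in R 4.3.3 (filterByExpr on genotype, TMM factors between 0.979 and 1.02, robust glmQLFit, glmQLFTest), with Benjamini-Hochberg adjustment over the 14778 genes tested. Genes were called at an FDR below 0.05, and the study's fold threshold (absolute log2 fold change above 2) was counted beside it. CPM are counts over the TMM-scaled library size. The standard error is that of the log2 fold change. With 3 libraries against 3, no exact permutation p can go below 0.1, so none is given. Replicates of a genotype differed by more than sampling noise (chi-square 10.4 to 31.4 per gene) and each counted as a sample. The script was tested on simulated counts.

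The 44 genes, their roles and the lists were chosen with earlier results of these data known. The text names all 44, *Scd2*, and of each list at most 4 genes, those called with the lowest p; *Ly6g* was named after its values were seen. Promoters (RefSeq, GRCm38.p6) were found for 34 of the 44 genes, and coordinates, exonic lengths and 3' untranslated regions come from GENCODE M21. Alternatives were RLE and upper-quartile factors, DESeq2 1.42.0, limma-voom (limma 3.58.1) with and without quality weights, other filters, a replicate block, halved counts, other thresholds and leaving out each library.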

Additional observations from a re-analysis of the deposited data

How the results depend on the processing

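Of the 20 called genes among the 44, 14 were called in all 16 alternatives (*Nfkb1*, *Nfkb2*, *Relb*, *Nfkbia*, *Nfkbie*, *Nfkbiz*, *Fosl2*, *Egr2*, *Ier2*, *Ier5*, *Dusp2*, *Klf2*, *Zfp36l1* and *Trib1*), and 9 others were called in at least 1 alternative but not with the main settings. No alternative shifted the median log2 fold change of all genes outside −0.0016 to 0.019. With quality weights limma-voom called 4507 genes, with 13 upstream NF-kB genes, 20 MAP kinase, SRF and CREB genes, 7 ERK feedback genes and 4 heat shock genes. It gave a log2 fold change of −0.82 for *Scd2* (FDR = 9.74e-05), and limma-voom without weights gave −0.62 (FDR = 0.0105). Leaving out 1 library at a time gave 13 to 17 lower and 2 to 6 higher genes of the 44, 5 to 12 upstream genes, 6 to 10 MAP kinase, SRF and CREB genes, 1 to 4 ERK feedback genes, 12 to 21 other immediate-early genes, 9 to 18 effector genes, 0 to 3 heat shock genes, 1440 to 2567 genes in all and −0.83 to −0.48 for *Scd2*. Signs turned only in genes that were not called. Without wild-type replicate 1 *Nr4a2* was 0.0196, without replicate 2 *Jun* was −0.0053, and without replicate 3 *Dusp4* was −0.033, *Nr4a1* 0.044 and *Nr4a3* −0.0402. Without Scd2-m/-m replicate 1 *Dusp6* was 0.0007 and *Nr4a1* 0.046, without replicate 2 *Nr4a1* was 0.044 and *Nr4a3* −0.012, and with quality weights *Dusp6* was 0.014. Leaving out 1 library gave −0.0053 to 0.064 for *Jun*, −0.033 to 0.43 for *Dusp4*, −0.0904 to 0.0007 for *Dusp6*, −0.31 to 0.046 for *Nr4a1*, −0.67 to 0.0196 for *Nr4a2* and −0.0402 to 0.27 for *Nr4a3*. Same-numbered libraries of the 2 genotypes deviated together only weakly or not at all (r = 0.104, −0.054 and 0.083 over genes). Libraries of different number had r from −0.135 to 0.0704. These values over all genes cannot decide whether the numbers pair the samples. With the replicate number as a block 5 genes of the 44 were higher and 19 lower, with *Egr1*, *Nfkbib*, *Junb* and *Dusp1* added, 2974 genes were called in all, and *Scd2* was at −0.62. A filter of 1 CPM in 3 libraries left 41 of the 44 genes, without *Fosb*, *Fosl1* and *Nr4a3*, and at 9 to 52 counts per library those 3 genes could show only differences larger than those fitted.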
